A study of Mus musculus with 6 samples.

Results

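The endosomal Toll-like receptors Tlr3, Tlr7, Tlr8, Tlr9 and Tlr13, their trafficking protein Unc93b1, the adaptors Myd88 and Ticam1 and the kinases Irak1 and Irak4 were examined in mouse lungs carrying 4T1 tumour cells. The 10 genes were taken by name, through their Ensembl identifiers, and each had a row among the 35275 gene rows of the count tables, of which 21769 held a count. All 10 passed the filter on low counts, with 85 to 2670 counts in a library. Balb/c mice had received 250000 cells of 4T1, a Balb/c mammary carcinoma line, through the tail vein. The cells were either unmodified (labelled 4T1.WT, 3 lungs, here WT) or lacked PD-L1 (labelled 4T1.PD-L1 KO, 3 lungs, here KO), and RNA of the perfused lung was taken at day 7. The study's title sets tumour PD-L1 against myeloid PD-1 and type I interferon, which the endosomal receptors can elicit. The mice themselves carry no labelled edit. Their age is not given in the sources used here, nor whether the KO cells are 1 clone, nor whether each library is 1 animal. The p-values therefore set the group difference against the spread between these libraries within a group. Whether they hold for other animals or clones cannot be told.

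Endosomal Toll-like receptors detect nucleic acids that reach endosomes and lysosomes. UNC93B1 escorts them there from the endoplasmic reticulum, and proteases of the compartment, the cathepsins among them, cleave several of them into their active form. TLR3 signals through TRIF, the product of Ticam1, whereas TLR7, TLR8, TLR9 and TLR13 signal through MyD88 and the kinases IRAK4 and IRAK1. The MyD88 branch ends in NF-kB and, above all in plasmacytoid dendritic cells, in IRF7 and type I interferon. In the lung, macrophages, dendritic cells, monocytes and B cells carry most of these receptors, and TLR3 is also found in epithelium and other non-immune cells.

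The promoters of Myd88, Tlr3 and Tlr9 are shown because the members differ in interferon-related letters near their start. The windows run from 250 bases before to 50 bases after the RefSeq gene start (GRCm38.p6), and 8 of the 10 members had one, all except Tlr7 and Unc93b1. The RefSeq starts of Myd88 and Tlr3 lie inside the wider gene spans of GENCODE given further on. Capitals mark matches, on either strand, to the interferon-stimulated response element (GAAANNGAAA), to a core for interferon regulatory factors (AANNGAAA, which every GAAANNGAAA contains) or to the gamma-activated sequence (TTCNNNGAA). These letters stood in 3.44%, 23.9% and 8.30% of 32851 mouse windows of the same length. Myd88 (chr9:119339969-119340268, minus strand) held all 3 in 1 overlapping stretch, Tlr3 (chr8:45410331-45410630, minus strand) held the core alone, and Tlr9 (chr9:106222348-106222647, plus strand) held none.
Myd88: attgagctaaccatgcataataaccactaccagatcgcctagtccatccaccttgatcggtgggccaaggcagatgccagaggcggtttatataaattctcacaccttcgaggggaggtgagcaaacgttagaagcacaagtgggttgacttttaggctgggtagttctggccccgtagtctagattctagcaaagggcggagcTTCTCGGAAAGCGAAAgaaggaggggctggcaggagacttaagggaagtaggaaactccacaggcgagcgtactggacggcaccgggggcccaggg
Tlr3: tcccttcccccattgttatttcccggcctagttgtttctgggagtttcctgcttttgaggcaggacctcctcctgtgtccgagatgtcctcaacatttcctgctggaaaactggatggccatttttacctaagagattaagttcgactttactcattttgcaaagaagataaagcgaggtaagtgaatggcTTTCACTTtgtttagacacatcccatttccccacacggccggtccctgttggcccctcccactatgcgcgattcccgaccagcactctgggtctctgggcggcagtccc
Tlr9: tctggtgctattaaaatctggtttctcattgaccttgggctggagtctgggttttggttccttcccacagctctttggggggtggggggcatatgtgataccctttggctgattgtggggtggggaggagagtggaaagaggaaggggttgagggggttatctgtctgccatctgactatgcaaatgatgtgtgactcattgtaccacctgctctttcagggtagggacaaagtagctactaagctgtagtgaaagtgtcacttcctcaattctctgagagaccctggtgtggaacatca
In Myd88 the GAAANNGAAA match began 40 bases before the start and the TTCNNNGAA match 46 bases before it. The Tlr3 match began 59 bases before the start. Of the other members, Tlr8 had a TTCNNNGAA match 106 bases before its start, and the windows of Tlr13, Ticam1, Irak1 and Irak4 had no match. A match of letters is a description and no measurement of binding.

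The libraries held 14711459 to 16932114 counts and 17520 to 19156 detected genes, the most in KO replicate 1. Libraries of the same group differed by 15.29 to 28.9 times the variance that sampling gives, so each counted as 1 replicate. KO replicate 1 differed from KO replicates 2 and 3 by 17.69 and 28.9 times that variance, and KO replicates 2 and 3 from each other by 15.29. The WT pairs lay at 15.87 to 24.14. Over all genes 170 were called higher with the full set and 404 without KO replicate 1. Without WT replicate 3 there were 188, and without WT replicate 1, WT replicate 2, KO replicate 2 or KO replicate 3 there were 22 to 36. The surfactant gene Sftpc, a marker of the alveolar epithelium, had 7132 to 9010 CPM (counts divided by the TMM-scaled library size in megareads) and marks the tissue as lung. Cd274, which encodes PD-L1 and which host cells keep, had 910, 912 and 1132 counts in WT lungs and 1514, 3013 and 4929 in KO lungs. Every KO library was above every WT library, at 3.13 times the WT level, which missed the threshold (edgeR, adjusted p = 0.161). This runs opposite to a loss of the gene, so in whole lung Cd274 does not check the labels of the injected cells, and WT and KO stand for those labels throughout. Of 4 airway epithelium genes none passed the test, but their summed level was 338.3 to 862.9 CPM in WT and 1419 to 3232 CPM in KO lungs, with Krt5 at 0 in 3 libraries. Most of the sum was Scgb1a1, at 307 to 798.2 and 1313 to 3113 CPM. Scgb3a2 also lay higher in KO lungs without overlap, and Foxj1 overlapped. Of 7 epithelial tumour markers, 6 were tested and none passed, at 561.9 to 687.5 and 661.5 to 668.6 CPM, and lung epithelium shares most of them.

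In the lungs labelled as having received KO cells, Unc93b1 rose 1.49-fold. Of the other members none passed the test by edgeR's quasi-likelihood method, which was run over 15191 genes. Among all genes tested, 1.12% were called higher and 1.45% were called in either direction, against 1 of 10 members, a count too small to set against that background. An unadjusted p under 0.05 was reached by 3 members, Unc93b1, Tlr7 and Tlr9, and by 2221 of all genes. With no filter on low counts, Tlr7 and Tlr9 passed as well (edgeR, adjusted p = 0.033 and 0.00464). The median log2 difference of the members was 0.28, against 0.0072 over all genes, and 9 of 10 members were on the higher side, as were 51.0% of all genes. The 6 pan-leukocyte genes read further on had a median of 0.32, and all 6 were on the higher side. In whole-organ RNA, a larger number of cells that express a gene cannot be told apart from more of its RNA in each cell.

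**Figure D1:**
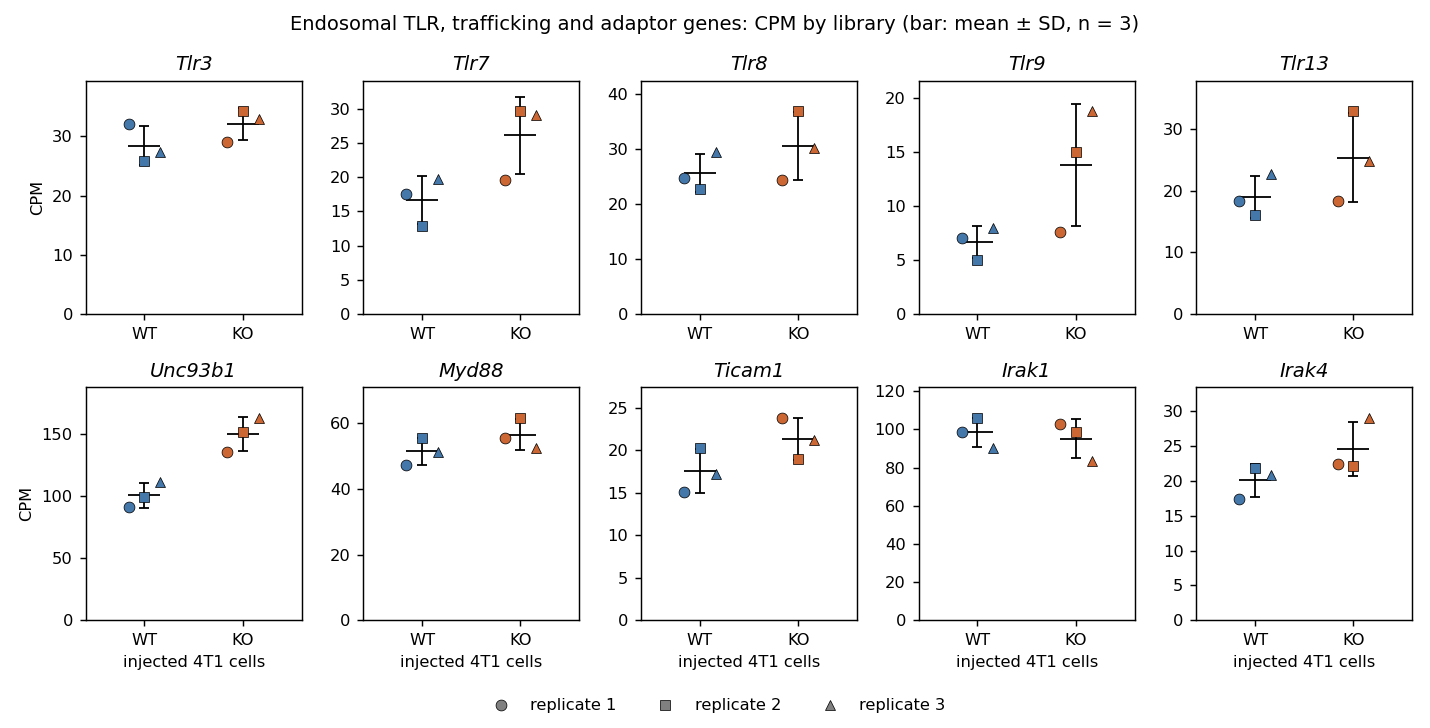
Each panel plots the CPM of 1 member in the 6 libraries, with WT lungs in blue and KO lungs in orange, symbols for the replicate number and bars for mean ± SD (n = 3 per group). Unc93b1 and Irak4 are the members whose KO libraries all lie above the WT libraries, and KO replicate 1 is the lowest KO library in all 5 receptors.

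Compared per exonic length, the members spanned a wide range. In WT lungs Unc93b1 was highest, at 33.1 ± 3.30 RPKM (CPM per kilobase of exon, SD, n = 3), followed by Irak1 at 20.9 ± 1.65 and Myd88 at 19.95 ± 1.58 RPKM, whose libraries overlapped. The receptors lay well below. Tlr8 had 7.16 ± 0.965 RPKM, and next came the adaptor gene Ticam1 at 5.86 ± 0.874 RPKM. Below them lay Tlr3 at 5.46 ± 0.625, Tlr13 at 4.41 ± 0.787, Tlr7 at 4.08 ± 0.863 and Irak4 at 3.99 ± 0.461 RPKM. From Tlr8 to Irak4 each gene's WT libraries overlapped those of the next gene in this order. The Tlr8 libraries, at 6.37 RPKM or more, did not overlap those of Tlr3, at 6.17 RPKM or less. Tlr9 was the lowest member, at 1.91 ± 0.434 RPKM, and its WT libraries lay below those of every other member. In KO lungs Unc93b1 was again highest, at 49.4 ± 4.49 RPKM, and Tlr9 lowest, at 3.96 ± 1.63 RPKM, but there the Tlr9 libraries overlapped those of Irak4, at 4.88 ± 0.777 RPKM.

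**Figure D2:**
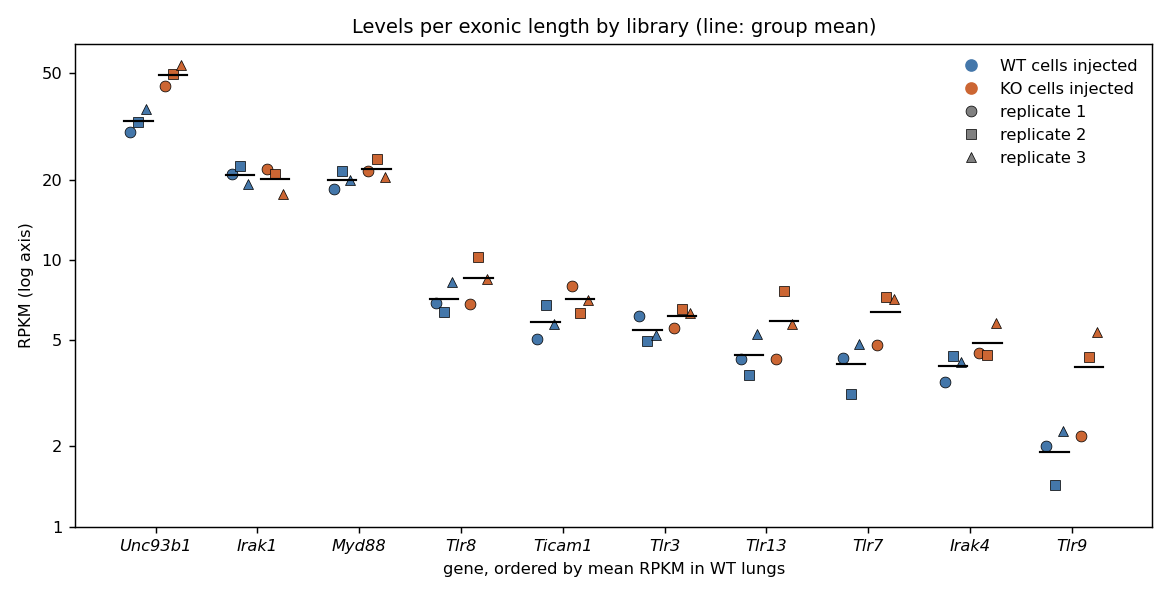
The RPKM of each member is plotted on a log axis for the 6 libraries, with genes in the order of their WT mean and lines at the group means. Unc93b1, Irak1 and Myd88 stand above the receptors in both groups, and the Tlr9 libraries, from 1.44 RPKM in WT replicate 2 to 5.38 RPKM in KO replicate 3, spread most.

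Tlr9, the receptor for unmethylated CpG DNA (ENSMUSG00000045322, chromosome 9, 106222598 to 106226883, plus strand), had the largest difference of the members. It stood at 7.01, 4.99 and 7.94 CPM in WT replicates 1 to 3 and at 7.60, 15.0 and 18.7 CPM in KO replicates 1 to 3. KO replicate 1 lay within the WT range and the other KO libraries above it. From 85 to 307 counts a library, this gave a log2 fold change of 1.05 ± 0.32 (SE), which missed the threshold (edgeR, adjusted p = 0.127). Without KO replicate 1 it passed, at 1.34 ± 0.28 (adjusted p = 0.0135), and without KO replicate 3 it was 0.76 (adjusted p = 0.434).

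Tlr7, which detects single-stranded RNA (ENSMUSG00000044583, chromosome X, 167304929 to 167330558, minus strand), had 17.5, 12.8 and 19.7 CPM in WT and 19.6, 29.6 and 29.1 CPM in KO lungs. As for Tlr9, KO replicate 1 fell inside the WT range. Its log2 fold change was 0.65 ± 0.21 and missed the threshold (edgeR, adjusted p = 0.162). It passed without KO replicate 1, at 0.82 ± 0.21 (adjusted p = 0.0465). Its neighbour and closest relative Tlr8 (ENSMUSG00000040522, chromosome X, 167242696 to 167264329, minus strand) had 24.7, 22.8 and 29.5 CPM in WT and 24.5, 36.9 and 30.3 CPM in KO lungs. These groups overlapped, and the log2 fold change came to 0.25 ± 0.18 (edgeR, adjusted p = 0.563).

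Tlr13, a receptor for bacterial ribosomal RNA (ENSMUSG00000033777, chromosome X, 106143204 to 106160493, plus strand), had 18.3, 16.0 and 22.6 CPM in WT and 18.3, 32.8 and 24.8 CPM in KO lungs. KO replicate 1 again lay among the WT libraries. The log2 difference was 0.42 ± 0.22 (edgeR adjusted p = 0.405). It was 0.19 without KO replicate 2 and 0.60 without KO replicate 1, and passed in neither case. Tlr3, which detects double-stranded RNA (ENSMUSG00000031639, chromosome 8, 45395665 to 45411080, minus strand), had the smallest difference of the receptors, at 32.1, 25.9 and 27.3 CPM in WT and 29.0, 34.2 and 33.0 CPM in KO lungs. WT replicate 1 was higher than KO replicate 1, and the fitted change, 0.17 ± 0.15 in log2, missed the threshold (edgeR, adjusted p = 0.659).

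The make-up of the receptors was also compared within each library. Of the summed RPKM of the 5 receptors, Tlr9 held 8.54, 7.31 and 8.83% in WT and 9.24, 12.0 and 16.3% in KO lungs. Tlr7 held 18.2, 16.0 and 18.7% in WT and 20.35, 20.12 and 21.59% in KO lungs, and for both genes every KO library was above every WT library. The share of Tlr8 was lower in the KO libraries, at 29.15, 32.46 and 31.86% against 28.85, 28.53 and 25.55%, also without overlap. Its own level was not lower, with a log2 fold change of 0.25. The shares of Tlr3 (23.9 ± 3.17 and 20.3 ± 2.84%) and Tlr13 (19.1 ± 1.19 and 18.9 ± 1.999%) overlapped. These shares are linked, since they sum to the whole, and they were not tested. How often such shares separate for other sets of genes was not counted, so their separation here decides nothing. In CPM, 10.3% of all genes tested lay higher in KO lungs without overlap. The sum itself was 23.61, 19.63 and 25.85 RPKM in WT and 23.64, 36.05 and 33.07 RPKM in KO lungs, with KO replicate 1 inside the WT range.

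Unc93b1 (ENSMUSG00000036908, chromosome 19, 3935186 to 3949340, plus strand) had 91.0, 99.4 and 110.9 CPM in WT and 135.7, 151.1 and 162.8 CPM in KO lungs. Every KO library was above every WT library, which also held for Irak4 among the members and for 10.3% of all genes tested. Unc93b1 averaged 149.9 ± 13.6 CPM with KO cells against 100.4 ± 9.997 CPM with WT cells (SD, n = 3), and rose by 0.58 ± 0.11 in log2 (edgeR, adjusted p = 0.0266). KO replicate 1 was the lowest KO library here too. The rise stayed between 0.51 and 0.65 whichever library was dropped, but it passed the threshold in 2 of those 6 fits, those lacking WT replicate 3 or KO replicate 1. Dropping WT replicate 1, WT replicate 2, KO replicate 2 and KO replicate 3 in turn gave adjusted p of 0.133, 0.116, 0.156 and 0.122. Set against the summed receptors, Unc93b1 was 1.27, 1.67 and 1.42 times their RPKM in WT and 1.89, 1.38 and 1.62 times in KO lungs, and these ratios overlapped.

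Among the adaptors, Myd88 (ENSMUSG00000032508, chromosome 9, 119335934 to 119341411, minus strand) had 47.4, 55.5 and 51.3 CPM in WT and 55.4, 61.6 and 52.5 CPM in KO lungs. The groups overlapped, and the log2 fold change was 0.14 ± 0.13 (edgeR, adjusted p = 0.680). This is the member whose promoter held all the searched letters. Ticam1, the adaptor of TLR3 (ENSMUSG00000047123, chromosome 17, 56269319 to 56276786, minus strand), had 15.1, 20.3 and 17.2 CPM in WT and 23.8, 18.9 and 21.2 CPM in KO lungs. Here KO replicate 1 was the highest library, while the fitted change of 0.28 ± 0.19 in log2 missed the threshold (edgeR, adjusted p = 0.534).

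Neither kinase passed the test. Irak4, which MyD88 binds first (ENSMUSG00000059883, chromosome 15, 94543643 to 94581815, plus strand), had 17.5, 21.9 and 20.8 CPM in WT and 22.5, 22.1 and 29.0 CPM in KO lungs. The KO libraries were all higher, the closest by 22.1 against 21.9 CPM, with a fitted change of 0.29 ± 0.18 in log2 (edgeR, adjusted p = 0.497). Irak1, which IRAK4 phosphorylates (ENSMUSG00000031392, chromosome X, 74013914 to 74023918, minus strand), had 98.7, 106.1 and 90.5 CPM in WT and 103.1, 98.6 and 83.6 CPM in KO lungs. Its log2 difference was −0.05 ± 0.12 (edgeR adjusted p = 0.893), the nearest to 0 of the members. Its sign turned when WT replicate 2 (0.0066) or KO replicate 3 (0.03) was dropped. Some exons are shared with genes on the opposite strand, and the strand setting of the counting is not given in the sources used here. Myd88 shared 290 exonic bases (11.3% of its exons) with Acaa1a, which had 1021 to 1161 counts, and Irak4 shared 395 bases (7.9%) with Twf1, which had 567 to 883 counts. Tlr3 shared 381 bases (7.3%) with the antisense gene Gm45542, which was not analysed here.

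**Figure D3:**
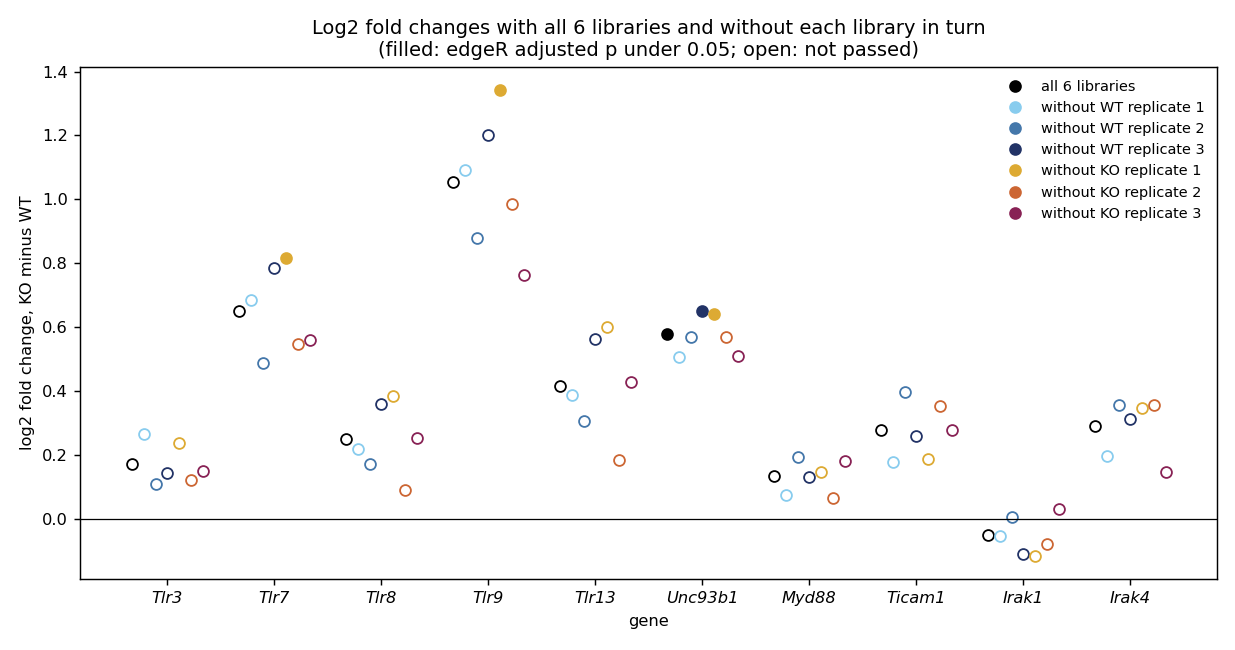
The log2 fold change of each member (KO minus WT) is plotted with all 6 libraries and without each library in turn, with filled circles where the edgeR adjusted p was under 0.05. Unc93b1 stays between 0.51 and 0.65, Tlr9 moves from 0.76 to 1.34, and Tlr7 and Tlr9 are filled without KO replicate 1 alone.

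Marker lists of the cells that could carry these genes were read in the same libraries. The 6 pan-leukocyte genes (Ptprc among them) summed to 1518 to 2029 CPM in WT and 1942 to 2569 CPM in KO lungs, and Coro1a and Cd53 of them rose. Of 8 monocyte genes 2 rose, Ly6c2 (11.4, 13.2 and 17.6 against 35.85, 40.1 and 55.2 CPM) and Ccr2 (28.7, 22.5 and 35.6 against 40.4, 52.35 and 70.5 CPM). The list summed to 3017 to 3105 and 2769 to 3299 CPM. Ace and Nr4a1 carried most of that sum, so it says little about the rest of the list. Their log2 differences were −0.18 and −0.04, and the other 6 were positive, with a list median of 0.43. Of 7 genes of plasmacytoid dendritic cells, 1 rose, Ccr9 (3.16, 2.11 and 2.30 against 4.89, 11.3 and 10.9 CPM). Siglech, the defining marker of these cells, had 7.15, 7.16 and 8.01 CPM in WT and 9.01, 17.2 and 23.4 CPM in KO lungs (edgeR adjusted p = 0.0784). That list summed to 263.3 to 277.5 and 281.4 to 297.8 CPM, most of it Tcf4, which other lung cells express. None of its genes was at 0 in a library. KO replicate 1 was the lowest KO library for 4 of the 7 (Siglech, Ccr9, Klk1 and Runx2), as it was for Tlr9, and the highest for the other 3 (Tcf4, Ly6d and Cox6a2). The log2 difference was −0.06 for Tcf4 and −0.25 for Cox6a2, and the other 5 were positive.

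None of the 6 B cell genes passed. Their sums were 153.4, 87.85 and 101.3 CPM in WT and 212.3, 139.5 and 175.8 CPM in KO lungs, highest in KO replicate 1. The sum of the plasmacytoid list was also highest there, at 297.8 CPM, but Tcf4 alone held 255.5 CPM of it. All 6 B cell genes had positive log2 differences, with a median of 0.61. Of 6 genes of type 1 conventional dendritic cells, cells rich in TLR3, none passed, at 346.1 to 362.1 and 328.4 to 359.5 CPM, with Clec9a at 32.6 to 40.2 and 31.0 to 33.9 CPM. Cadm1 was the largest part of that sum. Log2 differences were −0.14 for Clec9a and −0.22 for Cadm1. The other 4 were positive, from 0.0004 for Itgae to 1.48 for Batf3, and the list median was 0.091. Of 9 alveolar macrophage genes and 7 interstitial macrophage genes none passed, at 367.7 to 596.8 against 550.9 to 727.1 CPM and 784.7 to 995.6 against 936.8 to 1265 CPM. All 7 interstitial genes had positive log2 differences, with a median of 1.57, and all 9 alveolar genes, with a median of 0.33. The complement genes C1qa, C1qb and C1qc of the interstitial list did not overlap between groups, C1qa for one at 10.04 to 32.1 against 49.5 to 117.4 CPM (edgeR, adjusted p = 0.220). Folr2 of that list was at 0 in WT replicate 2. Of 8 neutrophil genes 6 were tested, S100a8 and S100a9 of them rose, and the list summed to 167.3 to 279.7 and 326.2 to 499.4 CPM, with Ly6g at 0 in all WT libraries and Camp at 0 in 4 libraries. Of 6 T cell genes (66.9 to 105.2 against 97.0 to 135.8 CPM), 4 NK cell genes (19.6 to 69.3 against 36.6 to 44.6 CPM), 7 alveolar epithelial and 5 endothelial genes none passed, and of 5 fibroblast and mesothelial genes Pdgfra fell. The median log2 difference was 0.54 for the tested neutrophil genes, 0.43 for the T cell genes and 0.064 for the NK cell genes. Positive differences were seen in 6 of 6, 5 of 6 and 2 of 4 of them. The part of these cells in the values of the members was not tested.

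**Figure D4:**
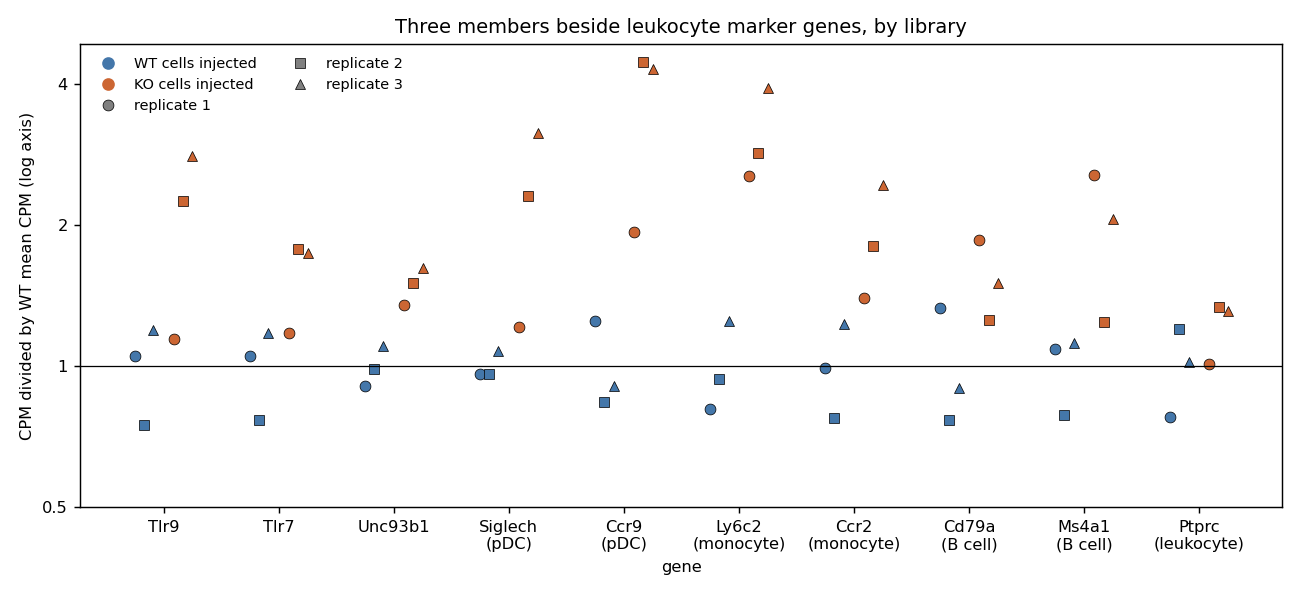
CPM divided by the WT mean is plotted on a log axis for Tlr9, Tlr7 and Unc93b1 and for 7 marker genes, picked after their values were seen, with WT lungs in blue, KO lungs in orange and symbols for the replicate number. In Tlr9, Tlr7 and Siglech the KO replicate 1 circle sits far below the other KO libraries, whereas in Cd79a and Ms4a1 it is the highest. Genes of the same lists that are not plotted go the other way. The log2 differences were −0.06 for Tcf4 and −0.25 for Cox6a2 (plasmacytoid list), and −0.18 for Ace and −0.04 for Nr4a1 (monocyte list). KO replicate 1 was the highest KO library for Tcf4, Ly6d and Cox6a2 of the plasmacytoid list.

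Each member was also set against the summed pan-leukocyte genes of its own library. On that scale 0 of 10 members separated the groups. In CPM 2 of 10 members lay higher in KO lungs without overlap, as did 10.3% of all genes tested. The share of all genes was not counted on the ratio scale, so the 0 of 10 decides nothing. The log2 ratio of Tlr9 was −7.76, −8.59 and −8.00 in WT and −8.00, −7.42 and −7.02 in KO lungs, a difference of 0.63 (exact permutation test, two-sided, p = 0.3, adjusted over the 10 members 0.6). For Unc93b1 it was −4.06, −4.27 and −4.19 in WT and −3.84, −4.09 and −3.90 in KO lungs, so that its groups, apart in CPM, overlapped, with a difference of 0.23 (exact permutation p = 0.2, adjusted 0.6). The ratio of Tlr7 differed by 0.30, and that of Irak1 had the largest decrease, −0.40 (exact permutation p = 0.2, adjusted 0.6). The level of Irak1 itself differed by −0.05 in log2. The denominator of these ratios was 1518 to 2029 CPM in WT and 1942 to 2569 CPM in KO lungs. The smallest p that 3 against 3 libraries allow is 0.1, so this test cannot reach 0.05.

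The rest of the pathway gave 3 higher and 0 lower genes of 54 tested, with a median log2 difference of 0.084. Among all genes tested, 1.12% were called higher and 1.45% in either direction, and their median was 0.0072. The pathway genes were not tested against that background. The 3 higher pathway genes were the transcription factor Irf7, the protease Ctss and the inhibitor Socs1. Irf7, which carries the signal of TLR7 and TLR9 to the interferon genes, had 48.1, 62.9 and 46.7 CPM in WT and 101.1, 127.4 and 194.5 CPM in KO lungs. The KO libraries all lay above the WT libraries, and it rose by 1.42 ± 0.22 in log2 (edgeR, adjusted p = 0.0151). Irf7 is also induced by interferon. Of the 8 transcription factors it was the single one that passed. Irf5, another factor of this branch and named here after its values were seen, stood at 0.66 ± 0.16 in log2 (adjusted p = 0.0571). It passed with DESeq2 (0.015), with no filter on low counts (0.00384), with the replicate number as a block (0.0464) and without KO replicate 1 (0.0426), and in none of the other 10 settings.

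Of 11 measured genes of receptor folding, trafficking and cleavage, Ctss rose, from 266.4, 230.3 and 356.3 to 389.2, 622.4 and 619.9 CPM (0.94 ± 0.20 in log2; edgeR, adjusted p = 0.0433). It encodes cathepsin S, which cleaves endosomal receptors and also prepares MHC class II molecules for peptides. The other 10 did not pass, and 9 of them had positive differences. Of 9 inhibitors, Socs1, which restrains cytokine and interferon signals, rose from 13.9, 8.34 and 10.6 to 17.4, 26.3 and 22.6 CPM (1.01 ± 0.23, edgeR adjusted p = 0.0472). The other 8 inhibitors did not pass, and their list had a median of −0.059.

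None of 15 downstream kinases and ubiquitin ligases passed, with a median of 0.076. The smallest p-values were those of Ikbkg, a subunit of the IKK complex (−0.29 ± 0.14, edgeR adjusted p = 0.366), and the kinase Irak2 (0.23 ± 0.13, adjusted p = 0.450). None of 9 surface receptors and co-receptors passed, with Tlr1 at 0.56 ± 0.29 (adjusted p = 0.394) and the TLR4 partner Ly96 at 1.03 ± 0.53 (adjusted p = 0.398), and their median was 0.079. Neither sorting adaptor passed. Tirap was at −0.07 ± 0.16 and Ticam2 at 0.35 ± 0.38. With WT replicates 1, 2 and 3 and KO replicates 1, 2 and 3 left out in turn, 0, 1, 2, 5, 0 and 1 of the 54 genes rose. Irf7 did not pass without WT replicate 1 (adjusted p = 0.124) or KO replicate 2 (0.0526). Ctss passed in the fits lacking WT replicate 3 or KO replicate 1 and in none of the other 4 (0.138 to 0.200). Socs1 passed in the fit lacking KO replicate 1 and in none of the other 5 (0.0855 to 0.249), nor with upper-quartile scaling, where it lay at the threshold, or limma-voom (0.0505).

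**Figure D5:**
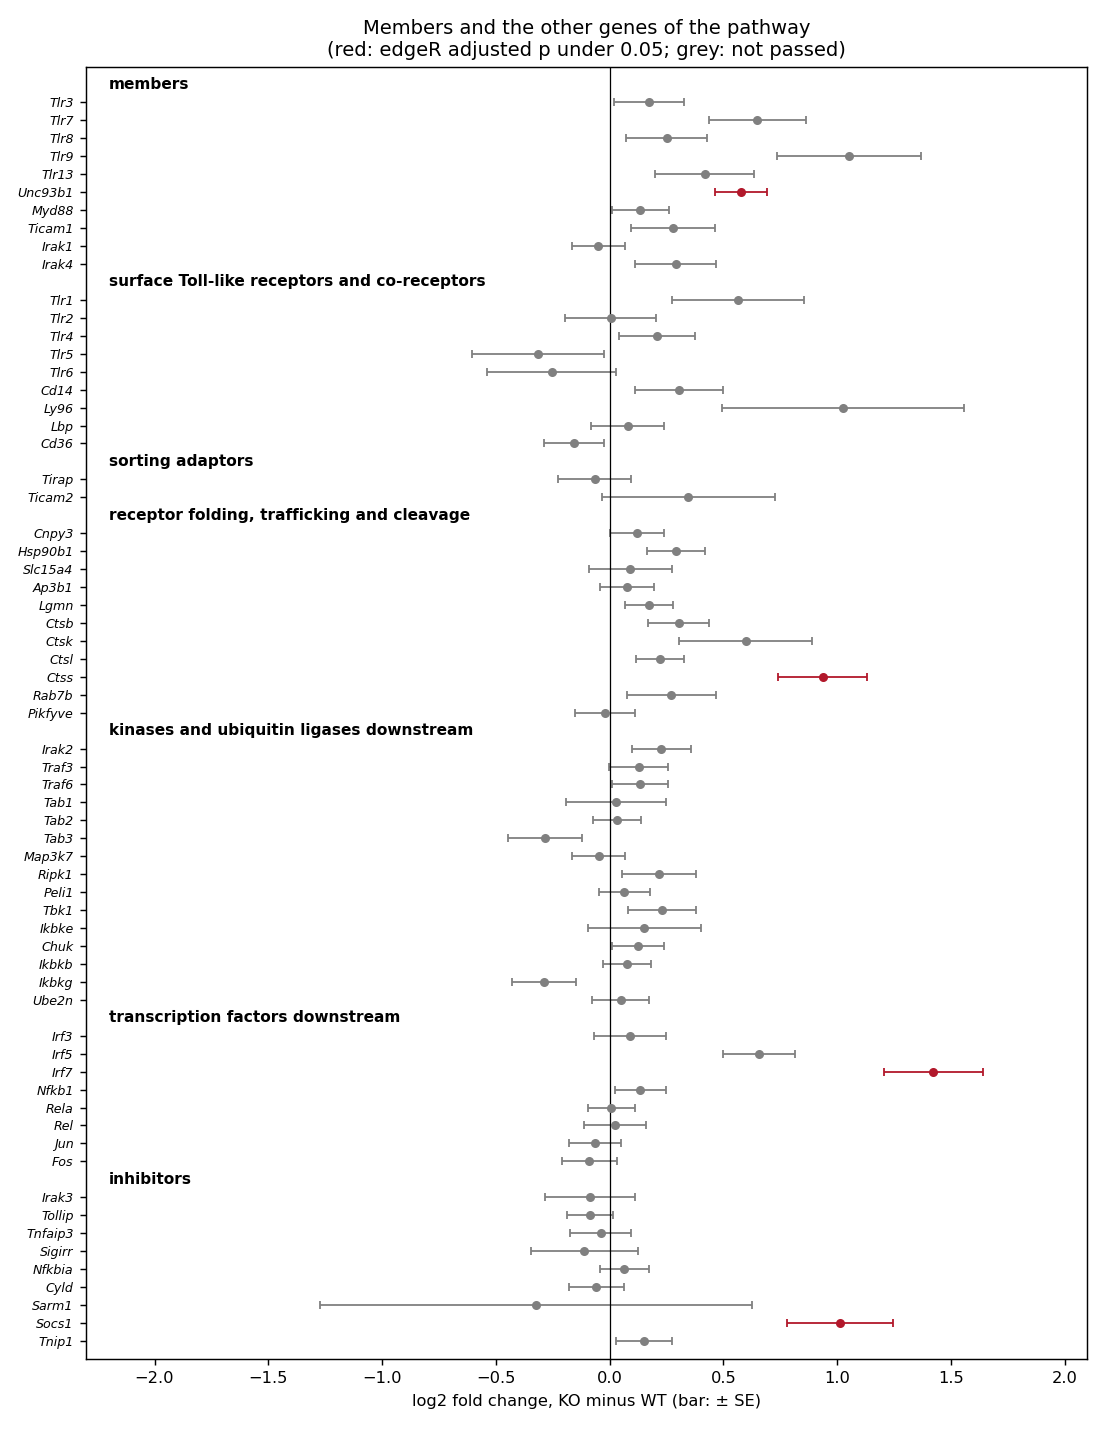
Log2 fold changes (KO minus WT) with their standard errors are plotted for the 10 members and for 54 other pathway genes, grouped by role, with genes that passed the edgeR test in red. Unc93b1, Ctss, Irf7 and Socs1 are red, from 0.58 for Unc93b1 to 1.42 for Irf7, and all other genes are grey.

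By likeness of pattern, the genes nearest to Unc93b1 over the 6 libraries, among 12673 genes of sufficient level, included Dynll1 and Ly6c2, with Pearson r of log2(CPM + 1) of 0.994 and 0.994. Ly6c2 is a surface protein gene of inflammatory monocytes. For Tlr9, the receptor with the smallest p, they were Jpt1, Prdx5 and H2-DMb1, at 0.999, 0.996 and 0.995. Prdx5 is a peroxide-reducing enzyme gene, and H2-DMb1 encodes a chain of the molecule that loads peptides onto MHC class II. Like Tlr9, H2-DMb1 had a low KO replicate 1, at 13.3 CPM against 23.2 and 27.7 CPM in the other KO lungs and 10.7, 8.87 and 13.1 CPM in WT lungs. These values describe 6 libraries that include both groups, and the nearest of so many genes are close by selection.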

How the data were processed

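The authors deposited whole-number read counts per Ensembl gene, 1 table per library. Per the series' design text and the submitters' processing notes, paired-end reads were aligned to mm10 (GRCm38) with STAR 2.5 and counted with HTSeq 0.6.1; annotation release, strand setting and read filters: not given in the sources used here. Library totals are in the report; a count of 0 allows, at 3 counts, up to 0.177 to 0.204 CPM (counting error only).

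Symbols, exonic lengths and coordinates (counted from 1) came from GENCODE M21 (GRCm38) by identifier. KO and WT were compared with edgeR 4.0.16 in R 4.3.3: filterByExpr with a minimum count of 10, TMM, glmQLFit with robust=TRUE, quasi-likelihood F-test, design of group alone, two-sided. Benjamini-Hochberg adjustment ran over all 15191 genes tested, with a threshold of 0.05. SE was taken as |log2 fold change| / sqrt(F). CPM and RPKM use TMM-scaled library sizes, and RPKM the union of exons. Tasl, 1 of 55 pathway genes, found no row and was not analysed here. The procedure was tested on simulated counts.

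Members, pathway and marker lists were chosen with earlier results of these data known. The text names all members, each pathway gene that passed or else the 2 genes with the smallest p of a list, and the 3 genes most like Unc93b1 and the receptor with the smallest p (mean log2 CPM of at least 1; no Gm, Rik or pseudogene symbols), of which 1 is not reported here. Marker genes named beside them passed the test, define a cell type, were at 0 or were picked after their values were seen. Alternatives were other scalings and filters, DESeq2 1.42.0, limma 3.58.1 (voom), robust=FALSE, the replicate number as a block and leaving out each library. RefSeq promoter windows were searched for letters of 3 motifs.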

Additional observations from a re-analysis of the deposited data

How the results depend on the processing

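Of the members, 1 rose and 0 fell with all libraries. With 1 library left out, 0 to 3 rose, 0 fell, and the median log2 difference was 0.24 to 0.37. Without a filter on low counts 3 members (Tlr7, Tlr9 and Unc93b1, edgeR adjusted p = 0.033, 0.00464 and 0.000468) and 5 pathway genes rose, against 3 with the filter, and the cause was not tested. Pathway genes that rose numbered 0 to 5 with 1 library left out. In the 8 settings that kept all libraries, Unc93b1 passed each time (adjusted p of 0.000468 to 0.0307) at 0.57 to 0.58, and Tlr9 did not pass in 7 of them (0.0606 by DESeq2, 0.200 by limma-voom). Irak1 ranged from −0.11 to 0.03 with 1 library left out. Its sign turned without WT replicate 2 (0.0066) and KO replicate 3 (0.031). The median difference of the members against pan-leukocyte genes was −0.061, −0.10 to 0.02 with 1 library left out and −0.015 with Ptprc alone as denominator. Both were chosen after the data had been seen. The scalings moved the median of all genes by under 0.1 on the log2 scale.

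The labels number the lungs 1 to 3 in each group without saying that equal numbers belong together, and deviations of same-numbered libraries from their group means correlated at 0.027, −0.019 and 0.0091. With the replicate block, 1 member rose, Unc93b1 (0.58, adjusted p = 0.00789), and 309 genes were higher and 96 lower among all genes tested, against 170 and 51 without it. DESeq2 called 354 higher and 233 lower, and no filter gave 578 and 225. The fit lacking KO replicate 1 had 404 and 174, and that lacking WT replicate 3 had 188 and 34. Those lacking WT replicate 1, WT replicate 2, KO replicate 2 and KO replicate 3 had 28, 22, 23 and 36 higher and 5, 2, 2 and 4 lower.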
